A study of Mus musculus with 20 samples.

Results

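Metallothioneins are small, cysteine-rich proteins that bind zinc and copper in the cytosol, and Mt1 and Mt2 are the forms made in most tissues, the liver foremost. Their transcription is known to be raised by zinc through MTF1, a zinc-finger factor that binds metal response elements, and in the liver also by glucocorticoids and by inflammatory cytokines that act through STAT3. Slc39a14 (ZIP14) carries zinc, manganese and iron into hepatocytes and is a known IL-6 target, Slc30a10 (ZnT10) exports manganese, and Slc30a1 (ZnT1) exports zinc across the plasma membrane. The 6 genes described here, Mt1, Mt2, Slc39a14, Slc30a10, Slc30a1 and Mtf1, were taken by symbol and make up 6 of the 24972 rows in each of 2 expression tables. Both tables held all 6.

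RNA was sequenced from total liver lysate of mice and from RAW264.7, a mouse cell line of monocyte and macrophage character, in a study of HMGB1, a nuclear protein that signals when released, in liver injury. The liver table covered 14 libraries from mice fed for 6 weeks: 8 from WT mice, split evenly between control and alcohol diet (n = 4 each), and 6 from RageΔMye mice, likewise split (n = 3 each). The genotype label RageΔMye names a deletion of Rage, the receptor encoded by Ager, and does not state the Cre driver, and all mice were labelled male, with strain and age not given in the sources used here. The RAW264.7 table covered 6 libraries from WT-labelled cells given BSA (n = 3) or a complex of [O] HMGB1 with IL1β (n = 3) for 6 hours. No label says that the replicates were separate animals or cultures, so p-values measure the spread between these libraries, which may be technical.

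Levels are in TPM, the usual length-scaled unit of RNA-seq, and fold differences were tested as log2(TPM + 1). The sets of libraries stood apart. WT libraries listed 15113 to 15599 genes above 0, RageΔMye-labelled libraries 7596 to 8502, and those of RAW264.7 between 8630 and 9231. The most frequent TPM above 0 was 0.0576 to 0.0835 in WT libraries. It was 14.4 to 20.5 in the RageΔMye-labelled and 9.85 to 13.4 in the RAW264.7 libraries, so some genes there moved in coarse steps. This value is not a floor. Slc39a14, for example, was 4.29 TPM in RageΔMye-labelled control library 3 and 2.25 TPM in RAW264.7 complex library 3. Whole steps were checked for Mt1 and Mt2 alone. Ager ran opposite to the direction of a deletion, at 93.1 to 166 TPM in the libraries labelled RageΔMye and 0.0194 to 0.478 TPM in WT. In total liver this level does not show whether Ager was deleted in some cells, and its cause was not tested. Xist, the transcript of the inactive X chromosome, was 0.00165 to 0.135 TPM in WT control and 17.8 to 27.3 TPM in WT alcohol libraries, while 4 Y-linked genes summed to 11.3 to 16.6 and 0 to 0.0161 TPM. In the libraries labelled RageΔMye the Y-linked sum was 3.162 to 4.502 TPM in control and 0.276 to 1.74 TPM in alcohol libraries, also without overlap, and Xist was 0 to 3.10 and 0.322 to 0.990 TPM. Diet and sex therefore cannot be told apart in the WT comparison, and the level of Y-linked genes also moved with diet in the libraries labelled RageΔMye. Genotype and library set cannot be told apart between the genotypes. In bulk tissue, fewer cells of a type and less RNA per cell cannot be told apart either.

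Mt1 and Mt2 are neighbours on chromosome 8 (mm10, GENCODE vM21), Mt2 at chr8:94172664-94173568 and Mt1 at chr8:94179082-94180327, both on the plus strand with 5513 bases between them. Slc30a10 (chr1:185454848-185468762) and Slc30a1 (chr1:191906767-191913247) are also on the plus strand, as is Mtf1 (chr4:124802104-124849800), and Slc39a14 (chr14:70303469-70351425) is on the minus strand. The longest exact run shared by an Mt1 and an Mt2 transcript was 20 bases. Whether reads were split between the metallothionein pair was not tested. Exons of Mt2, Slc30a10, Slc30a1 and Mtf1 overlap an exon of a gene on the other strand (Gm45774, Gm2061, 1700034H15Rik and 1110065P20Rik). Mt1 and Slc39a14 have no such partner. Whether counting used the strand is not given in the sources used here, and without it reads from such partners cannot be told apart.

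The promoters of 5 of the 6 genes were matched in RefSeq (GRCm38.p6), all but that of Slc39a14. Positions are given from the start in that source. For Mt1, Mt2, Slc30a1 and Mtf1 it is not the first base of the GENCODE gene given above. The 250 bases before the start of the 2 metallothioneins and of the 2 SLC30 exporters are shown because metal response elements are known from Mt1, Mt2 and Slc30a1, with the exporter Slc30a10 set beside them. Capitals mark the core of the metal response element, searched as TGCACNC and TGCGCNC and, on the other strand, GNGTGCA and GNGCGCA. The regions are chr8:94178839-94179088 for Mt1, chr8:94172368-94172617 for Mt2, chr1:185454598-185454847 for Slc30a10 and chr1:191906531-191906780 for Slc30a1, all plus strand, 5′ to 3′.
Mt1: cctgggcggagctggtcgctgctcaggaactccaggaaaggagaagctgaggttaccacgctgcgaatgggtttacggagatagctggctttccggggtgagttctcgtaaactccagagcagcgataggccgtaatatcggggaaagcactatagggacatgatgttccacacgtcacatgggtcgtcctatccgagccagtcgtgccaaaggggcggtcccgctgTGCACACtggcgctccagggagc
Mt2: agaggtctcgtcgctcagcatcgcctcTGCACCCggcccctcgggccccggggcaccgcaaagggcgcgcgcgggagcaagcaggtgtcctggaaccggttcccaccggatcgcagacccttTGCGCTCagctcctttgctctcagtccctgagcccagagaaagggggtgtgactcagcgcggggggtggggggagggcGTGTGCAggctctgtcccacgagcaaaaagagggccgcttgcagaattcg
Slc30a10: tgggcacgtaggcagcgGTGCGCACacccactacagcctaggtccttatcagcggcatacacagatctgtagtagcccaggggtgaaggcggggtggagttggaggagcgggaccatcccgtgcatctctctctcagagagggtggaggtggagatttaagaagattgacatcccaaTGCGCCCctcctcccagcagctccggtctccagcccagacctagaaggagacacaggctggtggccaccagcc
Slc30a1: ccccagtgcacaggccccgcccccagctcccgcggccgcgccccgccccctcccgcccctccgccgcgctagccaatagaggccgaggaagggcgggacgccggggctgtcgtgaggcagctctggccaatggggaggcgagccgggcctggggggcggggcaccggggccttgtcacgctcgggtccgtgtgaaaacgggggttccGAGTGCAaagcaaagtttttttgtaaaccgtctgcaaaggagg

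Over the full window of 250 bases before and 50 after the start, Mt2 held 4 cores, Mt1 and Slc30a10 3 each, Slc30a1 2 and Mtf1 none. The 3 of Slc30a10 include 2 that overlap on opposite strands. Of 32851 promoters in the same table, 25.7% held at least 1 core, 7.11% at least 2, 1.97% at least 3 and 0.517% at least 4. In Mt2 the cores began 223, 128 and 50 bases before the start, with a further one 5 bases after it. In Mt1, 1 core began 23 bases before the start and the others 3 and 21 bases after it. These counts and positions hold for the RefSeq start alone. Cores around any other start were not searched, and the start used in these livers was not measured. The STAT core TTCNNNGAA was found in none of the 5 windows and in 8.3% of all promoters. A match in these letters is a description of sequence, and occupancy was not measured.

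In WT liver, both metallothioneins and the importer Slc39a14 were higher on the alcohol diet, with no overlap between the 4 control and the 4 alcohol libraries. Mt1 rose 2.93-fold, Mt2 3.39-fold and Slc39a14 2.36-fold in mean TPM. The manganese exporter Slc30a10 rose 1.68-fold with overlapping libraries, and the zinc exporter Slc30a1 and the factor Mtf1 did not pass the test. Thus 4 of the 6 genes passed as higher and 0 as lower at an adjusted p under 0.05, where 13.3% of the 9747 genes tested passed as higher and 17.9% as lower. All 6 genes passed the filter on low values, which asked that either group average 1 TPM or more. In a joint fit with the more spread RageΔMye-labelled libraries none of the 4 calls held (adjusted p = 0.430 to 0.803, limma).

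Mt1 was 2578, 1202, 1269 and 3999 TPM in the control libraries and 6514, 6235, 7507.5 and 6242 TPM in the alcohol libraries. The lowest alcohol library was above the highest control library, and the controls were the more spread, with a mean of 2262 ± 1320 TPM (SD, n = 4) against 6624 ± 603 TPM (SD, n = 4). On the log2(TPM + 1) scale the difference was 1.73 (SE 0.333, 95% interval 0.99 to 2.47; adjusted p = 0.00393, limma, Benjamini-Hochberg). By mean level Mt1 stood at rank 62 of 16499 genes above 0 in control liver and at rank 25 of 16796 in alcohol liver.

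Mt2 was 1876, 1025, 1343 and 3056 TPM in the control libraries and 6335, 5734, 6507 and 6205 TPM in the alcohol libraries. As for Mt1, control library 4 was the highest of its group and remained below every alcohol library. The difference was 1.88 on the log2 scale (SE 0.274, 95% interval 1.28 to 2.49; adjusted p = 9.0e-04, limma), and the rank of the mean moved from 77 to 29. Mt1 and Mt2 together made up 0.223 to 0.706% of all TPM in control and 1.20 to 1.40% in alcohol libraries. The ratio of Mt1 to Mt2 ranged from 0.945 to 1.37 in control and from 1.01 to 1.15 in alcohol libraries, so the pair kept near-equal levels per length on both diets.

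The other members of the family, Mt3 and Mt4, known from brain and stratified epithelium, were listed at 0 in all 4 WT control libraries and averaged at most 0.0615 TPM on alcohol, and neither passed the filter.

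**Figure D1:**
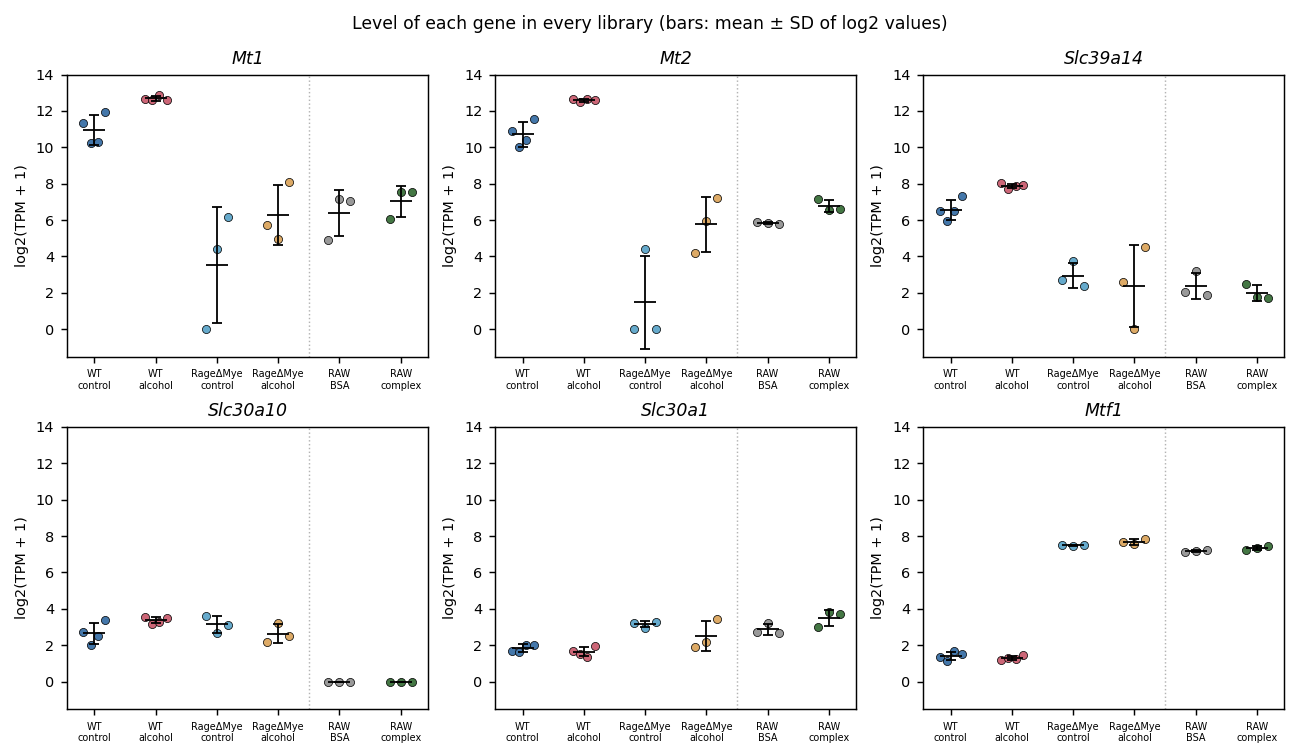
Level of each of the 6 genes as log2(TPM + 1) in every library, by group; points are libraries and bars the mean ± SD of the log2 values (n = 4 for WT, 3 elsewhere). In WT liver the alcohol points of Mt1, Mt2 and Slc39a14 lie above all control points, and Mtf1 sits at 139 TPM or more in every RageΔMye-labelled and RAW264.7 library but at 2.22 TPM or less in WT.

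Slc39a14 was 90.9, 61.5, 90.3 and 157 TPM in WT control and 257, 212, 232 and 243 TPM in WT alcohol libraries. The groups did not overlap, and control library 4 was again the highest of the controls. The difference was 1.31 on the log2 scale (SE 0.230, 95% interval 0.80 to 1.82; adjusted p = 0.00255, limma). The mean moved from rank 877 to rank 457. Of the 9747 genes tested, 12.3% had every alcohol library above every control library, and Mt1, Mt2 and Slc39a14 were among them.

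Slc30a10 was 5.49, 3.04, 4.66 and 9.26 TPM in control and 10.6, 7.99, 8.82 and 10.3 TPM in alcohol libraries. Control library 4 lay above 2 of the alcohol libraries. The difference of 0.73 (SE 0.242, 95% interval 0.20 to 1.27) had an adjusted p of 0.0413 by limma. That call was lost when any single library other than control library 4 was left out, with adjusted p-values of 0.0531 to 0.105, and without control library 4 the adjusted p was 0.00290. Gm2061, on the other strand of Slc30a10, was 0.474 to 0.760 TPM in control and 0.478 to 0.809 TPM in alcohol libraries.

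Slc30a1 was 2.24, 2.04, 3.05 and 3.00 TPM in control and 2.23, 1.91, 1.56 and 2.83 TPM in alcohol libraries, and the groups overlapped. Its difference was -0.20 on the log2 scale, with a 95% interval from -0.54 to 0.14 (adjusted p = 0.352, limma). Mtf1 was 1.53, 1.22, 2.22 and 1.82 TPM in control and 1.27, 1.48, 1.32 and 1.76 TPM in alcohol libraries. Its difference was -0.12, with an interval from -0.42 to 0.17 (adjusted p = 0.511, limma). The interval of either gene excludes a rise of the size measured for Mt1, Mt2 or Slc39a14 in the same libraries. In TPM, the order of the 6 mean levels was Mt1, Mt2, Slc39a14, Slc30a10, Slc30a1 and Mtf1 on both diets. The neighbours Mt1 and Mt2 overlapped on each diet, as did Slc30a1 and Mtf1, whereas Mt2 lay far above Slc39a14 and Slc39a14 above Slc30a10 in every WT library.

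**Figure D2:**
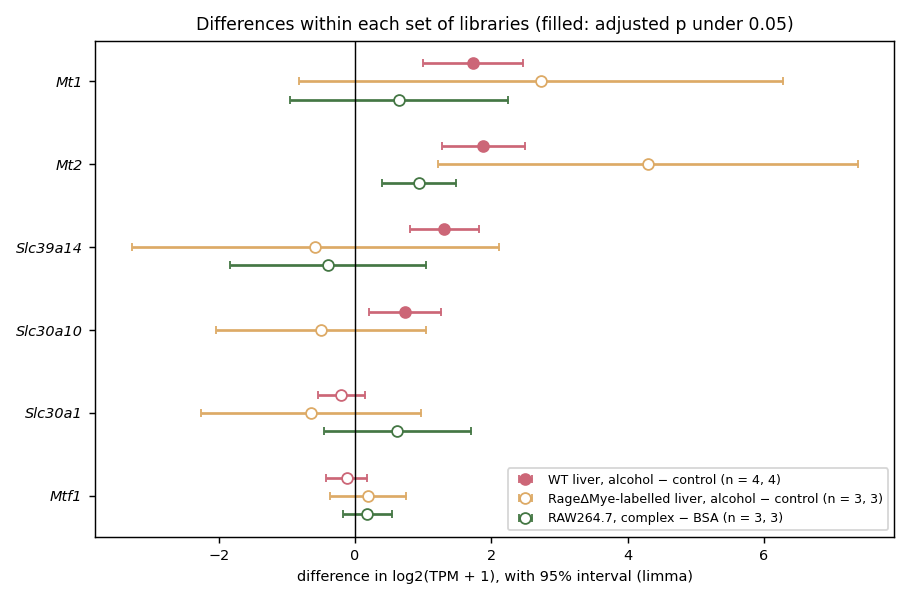
Difference of each gene within WT liver, within RageΔMye-labelled liver and within RAW264.7, in log2(TPM + 1), with the 95% interval from limma; filled points had an adjusted p under 0.05. The 4 filled points are Mt1, Mt2, Slc39a14 and Slc30a10 in WT liver, and the intervals of the metallothioneins in RageΔMye-labelled liver are the widest.

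Across the 8 WT libraries, Mt1, Mt2, Slc39a14 and Slc30a10 followed each other, and control library 4 was the highest control for all 4. Pearson's r of log2(TPM + 1) was 0.986 between Mt1 and Mt2, 0.988 between Mt2 and Slc39a14, 0.960 between Mt1 and Slc39a14, and 0.924 to 0.953 between Slc30a10 and these 3 (n = 8 libraries, which share the diet contrast). Slc30a1 and Mtf1 had an r of 0.823 with each other and of -0.333 to 0.029 with the other 4. The genes with the profile most like that of Mt1 were Lcn2, a neutrophil and hepatocyte acute-phase protein (r = 0.996), Lrg1 (0.995) and Ddx39 (0.993). For Mt2 they were Lcn2 (0.994), Syt12 (0.994) and Dpp9 (0.990). For Slc39a14 they were Steap4, a metalloreductase (0.995), Nfxl1 (0.992) and Arhgap1 (0.991), and for Slc30a10 they were Fndc3b (0.983), Tbl2 (0.982) and Rrp12 (0.982). The closest to Slc30a1 were Iws1 (0.959), Fastkd2 (0.947) and Map7 (0.943), and the closest to Mtf1 were Ss18 (0.980), Phf3 (0.976) and Dcaf12 (0.973). These coefficients describe 8 libraries in 2 groups and carry no test.

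**Figure D3:**
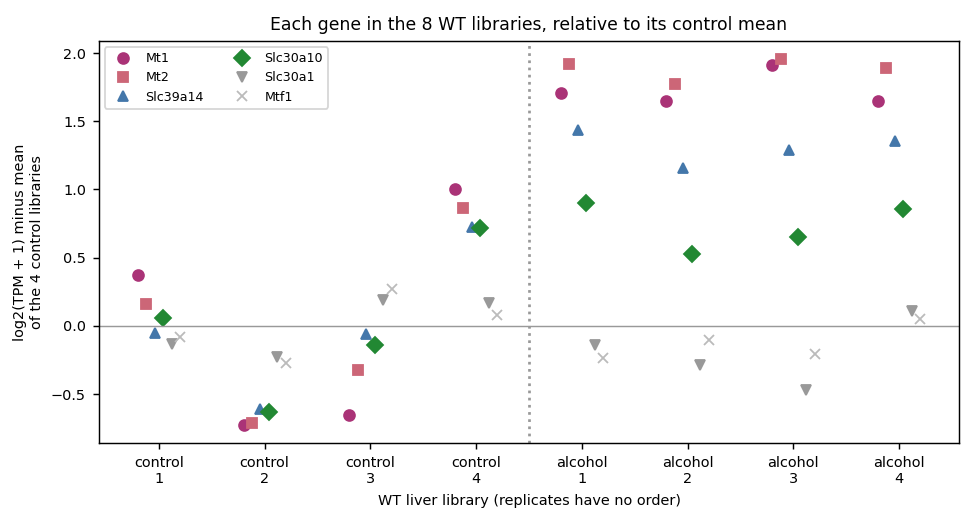
Log2(TPM + 1) of each gene in the 8 WT libraries minus its mean over the 4 control libraries; symbols are genes. Control library 4 is raised for Mt1, Mt2, Slc39a14 and Slc30a10 together, and the 4 alcohol libraries lie 1.65 to 1.96 above the control mean for both metallothioneins, while Slc30a1 and Mtf1 lie between -0.47 and 0.11 there.

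The SLC39 family moves zinc into the cytosol and the SLC30 family out of it. In WT liver, of 14 SLC39 genes 10 were tested, 4 were higher and 1 was lower, with a median difference of 0.099 against -0.047 for all genes tested. Of all genes tested, 13.3% were higher and 17.9% lower. Beside Slc39a14, the called genes were Slc39a1, a plasma membrane importer, at 58.8 ± 10.3 and 93.7 ± 6.08 TPM (SD, n = 4 each; log2 difference 0.68, adjusted p = 0.00434), and Slc39a7, which releases zinc from the endoplasmic reticulum, at 42.2 ± 12.4 and 68.3 ± 5.46 TPM (0.72, adjusted p = 0.0114). Slc39a4, the importer known from the gut, was 17.4 ± 4.94 and 25.4 ± 2.29 TPM (0.56, adjusted p = 0.0433). Slc39a11, named because it was the single lower call, was 12.01 ± 1.79 and 8.59 ± 1.54 TPM (-0.44, adjusted p = 0.0458). All adjusted p-values are from limma. Whether the families differed was not tested. Of 10 SLC30 genes 6 were tested, and Slc30a10 was the single call, with a median of 0.039. The remaining SLC30 genes tested, Slc30a1, Slc30a5, Slc30a6, Slc30a7 and Slc30a9, had differences of -0.21 to 0.26.

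**Figure D4:**
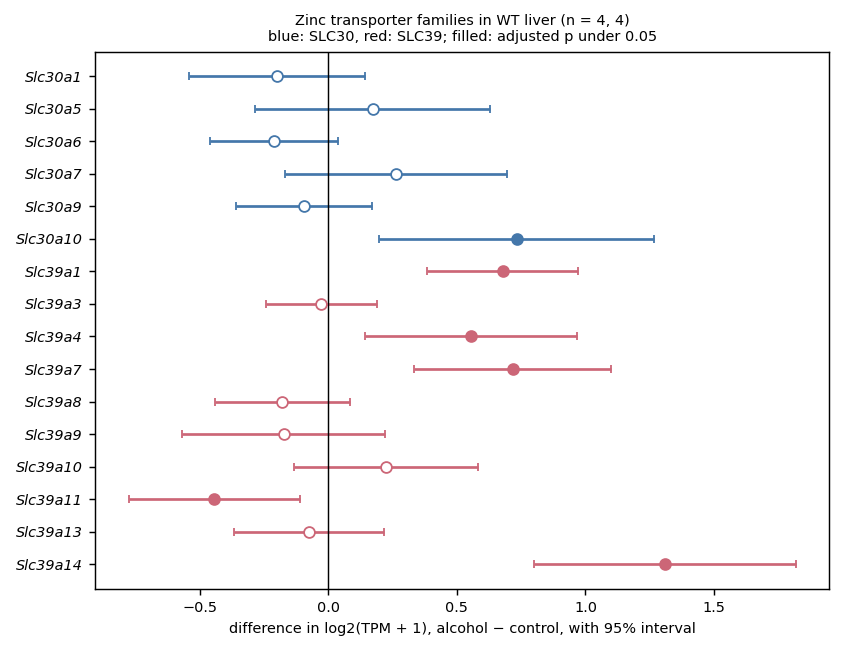
Difference between alcohol and control diet in WT liver for the 16 tested genes of the SLC30 (blue) and SLC39 (red) families, in log2(TPM + 1) with 95% intervals; filled points had an adjusted p under 0.05. Slc39a14 lies farthest from 0, at 1.31, and Slc39a11 is the filled point below 0, at -0.44.

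Of 6 genes listed as MTF1 targets, among them Slc39a10, which MTF1 is known to repress, 3 were higher (Mt1, Mt2 and Slc30a10) and none lower. All 3 are among the members already described, and 13.3% of all genes tested were higher and 17.9% lower. The other listed targets, Slc30a1, Slc39a10 and Gclc, had differences of -0.20, 0.22 and -0.15. Of 8 manganese-handling genes, 4 were higher, among them the members Slc39a14 and Slc30a10. The others were Sod2, the mitochondrial manganese superoxide dismutase (0.48, adjusted p = 0.00913), and Slc11a2, a divalent metal importer (0.75, adjusted p = 0.0189). Slc40a1, the iron exporter ferroportin, was lower (-0.80, adjusted p = 0.0127, limma). Of 11 copper-handling genes tested, 1 was lower, Sco2, a copper chaperone of cytochrome oxidase (-0.54, adjusted p = 0.0320, limma), and none was higher, with a median of -0.25.

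In WT liver, of 16 IL-6 and STAT3 targets 11 were higher and none lower, with a median of 1.18 against -0.047 for all genes tested. Lcn2 differed by 3.53, the clotting protein gene Fgg by 1.30, Orm1 by 1.26 and Stat3 itself by 0.95 (adjusted p = 0.00271, 0.00583, 0.00106 and 0.00340, limma). Of 9 genes for the glucocorticoid receptor and its targets, 3 were higher and 1 lower, where 13.3% and 17.9% of all genes tested were. The kinase Sgk1 rose by 1.46, Tat by 0.82 and Dusp1 by 0.59, and Tsc22d3 fell by 1.56 (adjusted p = 2.6e-04, 0.0216, 0.0282 and 0.00406, limma). Whether the genes of either list share a cause with Mt1 and Mt2 was not tested.

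Marker genes of other cells moved in the same WT libraries. The summed level of 8 neutrophil markers was 29.4 to 75.2 TPM in control and 102 to 153 TPM in alcohol libraries, that of 10 macrophage markers 91.3 to 100 and 136 to 207 TPM, and that of 8 stellate cell markers 41.6 to 63.0 and 75.9 to 134 TPM. Kupffer cell markers overlapped at 241 to 250 and 188 to 396 TPM, as did sinusoidal endothelial markers at 66.4 to 172 and 97.2 to 223 TPM. The 7 hepatocyte markers in the table summed to 124876 to 151332 and 139349 to 158987 TPM. The part of these cells in the differences of Mt1, Mt2, Slc39a14 and Slc30a10 was not tested.

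In the libraries labelled RageΔMye, none of the 6 genes passed the test between diets, and every value of Mt1 and Mt2 lay below every WT value. Of the 10689 genes tested, 0.0374% passed in either direction, and 1 of the 6 genes, Mt2, had an unadjusted p under 0.05. Mt1 was 0, 20.5 and 71.9 TPM in control and 52.0, 30.2 and 277 TPM in alcohol libraries, which overlapped. Mt2 was 0, 20.5 and 0 TPM in control and 17.3, 60.3 and 146 TPM in alcohol libraries. Alcohol library 3 was the highest for both, and the lowest alcohol library for Mt2 was below the control library at 20.5 TPM. The difference of Mt1 was 2.73 (95% interval -0.82 to 6.28, adjusted p = 0.736) and that of Mt2 4.30 (1.22 to 7.38, adjusted p = 0.534, limma). In the joint fit with the WT libraries, which shares 1 estimate of spread, Mt2 passed (adjusted p = 0.0310, limma). That was the 1 pass of Mt2 among 13 alternatives, and the joint fit called 657 of 12069 genes. Leaving out 1 library moved the difference of Mt1 to between 0.96 (without control library 1, listed at 0) and 4.05 (without control library 3), with 1.81 without alcohol library 3, and that of Mt2 to between 3.56 and 5.78. With libraries listed at 0 these sizes depend on the value added before the logarithm.

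Every Mt1 and Mt2 value in the 12 RageΔMye-labelled and RAW264.7 libraries was a whole multiple, within 0.1%, of the library's most frequent TPM above 0. Mt1 stood at 0, 1 and 5 such steps in RageΔMye-labelled control and at 3, 2 and 19 in alcohol libraries. Mt2 stood at 0, 1 and 0 and at 1, 4 and 10 steps. How many reads a step stands for is not given in the sources used here. A difference of a few steps is therefore all that separates most of these libraries.

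**Figure D5:**
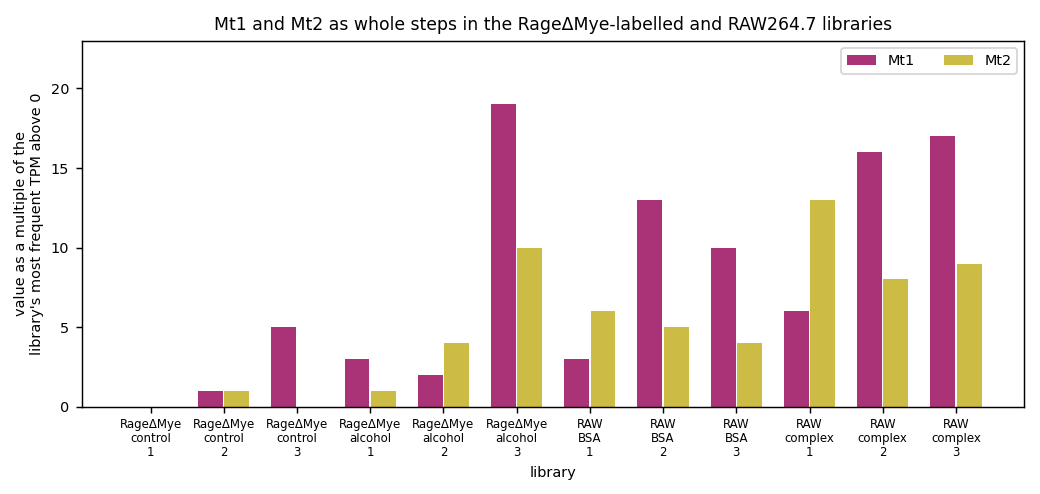
Mt1 and Mt2 in the 12 RageΔMye-labelled and RAW264.7 libraries as multiples of each library's most frequent TPM above 0; each pair of bars is 1 library. The RageΔMye-labelled libraries hold 0 to 5 steps except alcohol library 3, at 19 and 10, and the RAW264.7 libraries hold 3 to 17.

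Slc39a14 was 5.56, 12.3 and 4.29 TPM in RageΔMye-labelled control and 4.999, 0 and 21.9 TPM in alcohol libraries, with overlap. Its difference was -0.58 (adjusted p = 0.892, limma) and was 0.60 without alcohol library 2, the one listed at 0. Slc30a10 was 11.1, 5.48 and 7.70 TPM against 3.55, 8.18 and 4.74 TPM, a difference of -0.50 (adjusted p = 0.802). Slc30a1 was 8.49, 6.81 and 8.84 TPM against 2.78, 3.59 and 9.98 TPM, a difference of -0.64 (adjusted p = 0.752). Both exporters overlapped between diets.

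Mtf1 was 181, 173 and 179 TPM in RageΔMye-labelled control and 202, 184 and 225 TPM in alcohol libraries, with every alcohol library above every control library. That pattern was shared by 5.83% of the genes tested, and the difference of 0.19 had an adjusted p of 0.793 (limma). These Mtf1 levels were far from the 1.22 to 2.22 TPM of the WT libraries. The partner gene on the other strand, 1110065P20Rik, was 0 to 14.9 TPM in the RageΔMye-labelled and 2.20 to 4.09 TPM in the WT libraries. The partners of the exporters were also high in the libraries labelled RageΔMye. Gm2061 was 209 to 227 TPM in control and 60.2 to 89.3 TPM in alcohol libraries, and 1700034H15Rik was 71.6 to 267 TPM, against at most 0.809 and 0.101 TPM in WT. Without a known strand setting, reads of Slc30a10, Slc30a1 and Mtf1 cannot be told apart from those of these partners where their exons overlap.

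Levels between genotypes were set side by side without a test, because genotype and library set cannot be told apart. On control diet Mt1 averaged 2262 TPM in WT and 30.8 TPM in the libraries labelled RageΔMye, Mt2 1825 and 6.85 TPM, and Slc39a14 99.8 and 7.37 TPM. Slc30a10 averaged 5.61 and 8.10 TPM and Slc30a1 2.59 and 8.05 TPM. The 7 hepatocyte markers summed to 41693 to 61653 TPM in the RageΔMye-labelled libraries, all below the WT range. Whether the difference between diets differed between the genotype labels was tested in 1 fit over the 14 liver libraries, with weights for each genotype. This fit cannot tell genotype from library set, nor diet from sex in its WT part, so it does not isolate an effect of alcohol by genotype. None of the 6 genes passed, and none had an unadjusted p under 0.05, where 0.505% of 12069 genes passed. RageΔMye-labelled minus WT, the difference was 1.00 for Mt1 (95% interval -3.70 to 5.70), 2.42 for Mt2 (-1.43 to 6.27) and -1.89 for Slc39a14 (-5.09 to 1.30), and each interval spans several-fold differences in both directions. The adjusted p-values were 0.947, 0.747 and 0.768 (limma). For Slc30a10, Slc30a1 and Mtf1 the differences were -1.24, -0.45 and 0.32, with adjusted p-values of 0.855 to 0.949.

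In RAW264.7 cells the metallothioneins were detected in every library, and Mt2 was higher in all 3 libraries given the complex, a difference that did not pass over all genes. Mt2 was 59.1, 55.5 and 53.4 TPM with BSA and 142, 91.9 and 96.8 TPM with the complex, a 1.97-fold difference in means without overlap. Its difference was 0.94 (SE 0.233, 95% interval 0.39 to 1.49), with an unadjusted p of 0.00482 and an adjusted p of 0.261 (limma). Of the 10559 genes tested, 0.18% passed in either direction and 5.63% had every complex library above every BSA library. None of the 5 genes of the set that were tested passed, and Mt2 was the 1 with an unadjusted p under 0.05. In steps, Mt2 stood at 6, 5 and 4 with BSA and at 13, 8 and 9 with the complex.

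Mt1 was 29.5, 144 and 134 TPM with BSA and 65.5, 184 and 183 TPM with the complex, and the groups overlapped. Library 1 was the lowest of its group in both. The difference of 0.64 (95% interval -0.96 to 2.24, adjusted p = 0.755, limma) became -0.092 without BSA library 1. Mt1 exceeded Mt2 in libraries 2 and 3 of both groups and lay below it in library 1 of both, with ratios of 0.500 and 0.462 in library 1 and 1.89 to 2.60 in the others.

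Mtf1 was 139, 142 and 147 TPM with BSA and 149, 163 and 174 TPM with the complex, without overlap, and the difference was 0.18 (adjusted p = 0.755, limma). Slc30a1 was 5.51, 8.37 and 5.41 TPM with BSA and 6.88, 12.9 and 11.9 TPM with the complex, with overlap (0.62, adjusted p = 0.755). Slc39a14 was 3.06, 8.14 and 2.74 TPM with BSA and 4.57, 2.36 and 2.25 TPM with the complex (-0.39, adjusted p = 0.844), and the difference was 0.015 without BSA library 2. Slc30a10 was listed at 0 in all 6 libraries and was not tested. As to partners, 1700034H15Rik was 165 to 223 TPM and 1110065P20Rik 0 to 9.49 TPM in these libraries.

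No gene of the SLC30, SLC39, MTF1-target, copper, manganese, IL-6 and STAT3 or glucocorticoid lists passed in RAW264.7 or in the libraries labelled RageΔMye. Of all genes tested, only 0.18% passed in RAW264.7 and 0.0374% in the libraries labelled RageΔMye, so the absence of passes does not set these lists apart. The median difference of the 6 SLC30 genes tested in RAW264.7 was 0.69 and that of the 9 SLC39 genes -0.21, against -0.093 for all genes tested. Slc11a2 had a difference of 1.45 there (adjusted p = 0.258, limma). The 8 IL-6 and STAT3 targets tested in RAW264.7 had a median of 1.19 and a range of -0.91 to 3.90. Those with the highest mean level, Cebpd and Il6ra, differed by 0.36 and -0.91 (adjusted p = 0.710 and 0.633, limma). The largest rises, given beside them, were those of Saa3 and Socs3, and neither passed. Saa3, listed at 0 in every BSA library, differed by 3.90 (adjusted p = 0.0527) and Socs3 by 3.23 (adjusted p = 0.118, limma). In the RageΔMye-labelled libraries the medians were 0.055 for 7 SLC30 genes and -0.44 for 8 SLC39 genes, against 0.0058 for all genes. As a check of the label, all 7 hepatocyte markers and all 8 stellate cell markers were listed at 0 in the RAW264.7 libraries, while 10 macrophage markers summed to 1121 to 1594 TPM with BSA and 1219 to 1569 TPM with the complex. Of the 9 Kupffer cell markers, 8 were listed at 0 in each of these groups.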

How the data were processed

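RNA was sequenced from 14 total liver and 6 RAW264.7 libraries, prepared with a stranded mRNA kit per the labels' protocols. The deposited values are TPM, read as such because all columns have the same fixed total, and were set on build mm10 per the submitters' processing notes. The sources used here do not give the aligner, counter, strand setting or annotation. Read depth is unknown, so values carry no counting interval. The members and gene lists were chosen with earlier results of these data known.

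Groups came from the labels. Values were taken as log2(TPM + 1). Genes averaging 1 TPM or more in any group of the comparison were fitted with limma 3.58.1 in R 4.3.3 (trend), each genotype and the cell line apart, since spreads differed, with Benjamini-Hochberg adjustment over all genes tested (threshold 0.05, two-sided). The difference between genotypes used library weights for each genotype. The fits were tested on simulated data. Genes named beyond the 6 members were, for each list and comparison, up to 4 passing genes with the smallest adjusted p, otherwise values for the 2 highest, the 3 genes most correlated with each member in WT liver, genes for label checks and opposite-strand partners. Mt3, Mt4, Slc39a11, Saa3, Socs3 and the other tested SLC30 and MTF1-target genes of WT liver were named beside these. Alternatives changed the pseudocount, filter, normalization, fit, weights, replicate block and libraries.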

Additional observations from a re-analysis of the deposited data

Results flagged for a closer look

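Of 70 sets of libraries of 1 gene in 1 group of 4 (36 named genes), 3 had a library far from the others by Dixon's criterion, a rate near the 1 in 20 that chance gives, and none was of Mt1, Mt2, Slc39a14, Slc30a10, Slc30a1 or Mtf1. Slc39a7 was 60.6 TPM in WT control library 4, the library highest among controls for both metallothioneins, and 33.3 to 37.9 TPM in the other controls. Sco2 was 11.4 TPM in WT alcohol library 2 and 8.30 to 8.74 TPM in the others. Il6ra was 12.02 TPM in WT alcohol library 1 and 14.5 to 14.7 TPM in the others.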

How the results depend on the processing

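Of 336 results for the 6 genes under alternatives, 319 kept direction and side of the threshold, 12 lost the call, 1 gained it and 4 reversed. Mt1, Mt2 and Slc39a14 in WT liver passed under every alternative that could be fitted except a joint fit of the 4 liver groups, which shares 1 estimate of spread and gave adjusted p-values of 0.803, 0.504 and 0.668 (limma). Slc30a10 passed under 5 of 14 alternatives, and its adjusted p was 0.0918 without the filter and 0.430 in the joint fit. The joint fit called Mt2 in RageΔMye-labelled liver (adjusted p = 0.0310). The reversals each came from leaving out 1 library, over which the log2 difference ranged from -0.092 (without BSA library 1) to 1.13 for Mt1 in RAW264.7, from -0.65 to 0.015 (without BSA library 2) for Slc39a14 in RAW264.7, from -1.66 to 0.60 (without alcohol library 2) for Slc39a14 in RageΔMye-labelled liver, and from -0.77 (without RageΔMye-labelled control library 1) to 2.33 for the difference of Mt1 between genotypes.

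In WT liver, 1296 genes were higher and 1746 lower. These counts became 846 and 1035 with a filter at 5 TPM, and 173 and 164 in the joint fit. Without genes that overlap another on the other strand, 1091 were lower. Leaving out 1 library gave 898 to 1587 higher and 1082 to 1882 lower. The lowest count of higher genes came without control library 1 and the lowest of lower genes without alcohol library 1. Members called higher numbered 3 to 4 when 1 library was left out, 2 without overlap genes (Mt2 and Slc30a10 are such genes) and 0 in the joint fit. In RageΔMye-labelled liver, 2 genes were higher and 2 lower. Higher calls numbered 6 with the 5 TPM filter, 4 after quantile normalization, 345 in the joint fit (1 of them a member) and 31 with library weights, and lower calls 1 with a pseudocount of 0.1, without a filter or without overlap genes, 312 in the joint fit and 19 with weights. Leaving out 1 library gave 0 to 3 higher and 0 to 2 lower, with 0 in both directions without control library 2, control library 3 or alcohol library 2, and 0 higher without alcohol library 1. In RAW264.7, 16 were higher and 3 lower. Without overlap genes these were 5 and 1, lower calls were 1 with a pseudocount of 0.1 or without a filter, and leaving out any 1 library gave 1 to 8 higher and 1 lower. For the difference between genotypes, 38 were higher and 23 lower, and these became 78 and 50 without a filter and 250 and 213 without weights, with 11 lower without overlap genes. Leaving out 1 library gave 27 to 41 and 21 to 34. The cause of these shifts was not tested.

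Replicate numbers were shared in RageΔMye-labelled liver and in RAW264.7. Deviations of same-numbered libraries from their group means had correlations of -0.016 to 0.018 and -0.025 to -0.001. With 3 libraries per group and coarse steps, these values cannot decide whether the numbers pair libraries. The main fits left pairing out. A replicate block gave 0 higher and 0 lower genes in both comparisons. Read depth is unknown, and the coarse steps limit what low values show in these 12 libraries.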
